A study of Mus musculus with 29 samples.

Results

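Direction-selective (DS) retinal ganglion cells (RGCs) were compared as 4 ON DS cells and 4 ON-OFF DS cells, 8 of the 29 RGCs of the series. The cells were chosen by their response label alone, On Direction Selective for cells 1 to 4 and On-Off Direction Selective for cells 5 to 8, so that no expression value entered the choice. Every cell came from the retina of an adult C57BL/6 mouse (C57BL/6J in the study's methods, with no transgene named for these cells), was recorded in cell-attached mode while light stimuli were shown, and then had its soma aspirated. Its RNA was copied into cDNA with an oligo-dT primer, amplified by 35 cycles of PCR and hybridized to an Affymetrix mouse genome array of its own. The animals, the ages beyond adult and the preferred directions of the cells are not given in the sources used here. Each side was therefore treated as 1 sample of 4 cells, and counts, medians and ranges are given without tests between the sides. The comparison addresses which transcripts separate cells that signal motion of bright edges only from cells that signal motion of bright and dark edges.

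DS RGCs fire strongly to motion in a preferred direction and weakly to the opposite direction, because starburst amacrine cells inhibit their dendrites asymmetrically through GABA and also excite them through acetylcholine. ON-OFF DS cells branch in both starburst layers of the inner plexiform layer and project mainly to the superior colliculus and the lateral geniculate nucleus. ON DS cells branch mainly in the ON layer, project to the accessory optic system and serve the reflexes that stabilise the image on the retina.

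A gene was called detected at a MAS5 signal of 3000, which is 2 times the trimmed mean of every array (1500). Log2 signals were floored at 8.55, so a difference against a side at the floor depends on that floor. The number of detected genes stands for the depth of a library. It was 3107, 1842, 2833 and 2147 in ON DS 1 to 4 and 3104, 3333, 3591 and 2748 in ON-OFF DS 5 to 8. The medians were 2490 and 3218.5, and the ranges of the sides overlapped. The other 21 cells ranged from 1182 to 4201. With 4 cells a side, detection in 4 of 4 cells has an exact 95% Clopper-Pearson interval from 39.8% to 100%, and detection in 0 of 4 allows up to 60.2%. These intervals cover counting error only.

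All 8 arrays held RGC transcripts. Of 17 RGC markers, 10 to 12 were detected in each ON DS cell and 12 to 16 in each ON-OFF DS cell. *Sncg*, *Uchl1*, *Nefl*, *Nefm*, *Thy1*, *Gap43* and *Stmn2* were detected in all 8. The median signals of these 7 genes were lower on the ON-OFF side by between 0.66 and 0.99 on the log2 scale (median difference -0.85). After quantile normalization of the arrays that median difference was 0.03. Over the 384 genes detected in all 8 cells it was -0.49 with the deposited scaling and 0.09 after quantile normalization. Small differences of abundant genes are therefore read relative to this shift, whose cause was not tested.

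Rod transcripts differed widely between the cells of each side. Of 18 rod genes, 15, 0, 15 and 1 were detected in ON DS 1 to 4 and 2, 2, 12 and 5 in ON-OFF DS 5 to 8. Their summed signal ranged from 2124 in ON DS 2 to 1960766 in ON DS 3 on the first side, and from 73477 in ON-OFF DS 5 to 885557 in ON-OFF DS 7 on the other. *Sag*, the arrestin of rods, was at 222814 in ON DS 1 and 166489 in ON DS 3 but at 26 and 59 in ON DS 2 and 4. It was at 68946 in ON-OFF DS 7 and between 22 and 89 in the other 3 ON-OFF DS cells. None of the 18 rod genes separated the sides by any of the rules below. Of 15 amacrine genes, 0 to 2 were detected in each ON DS cell and 2 to 4 in each ON-OFF DS cell, and their summed signal was 723 to 23436 on the ON side and 35690 to 163593 on the ON-OFF side. *Calb2*, which RGCs also express, *Pax6* and *Slc6a9* held most of it in the ON-OFF DS cells, *Gad1* was detected in ON-OFF DS 7 alone (6028), and *Chat*, *Slc18a3*, *Slc32a1* and *Th* were detected in none of the 8 cells. Of 13 Müller glia genes 2 to 4 and 1 to 3 were detected, with summed signals of 104035 to 222780 and 94115 to 150021. The part of these cell types in the results was not tested.

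**Figure D1:**
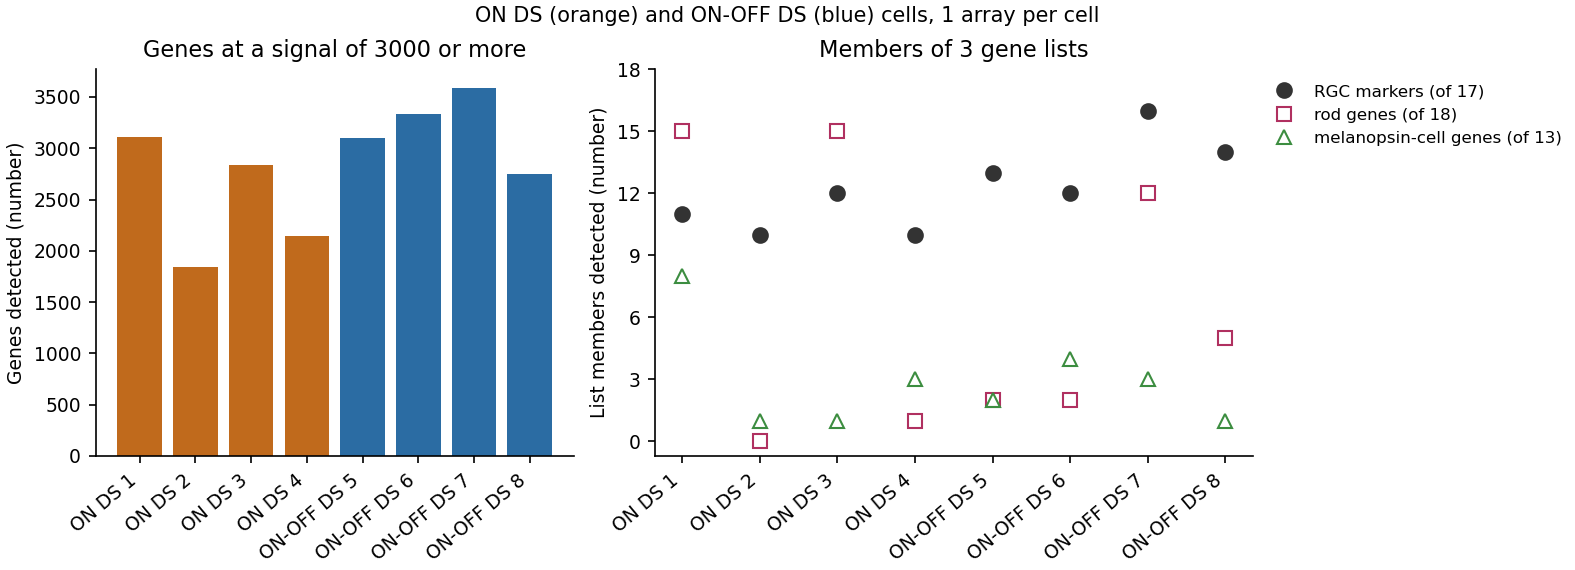
Left, bars give the number of genes at a signal of 3000 or more in each of the 8 cells. Right, points give the number of detected members of the RGC, rod and melanopsin-cell lists. ON DS 2 has the fewest genes (1842), rod genes are many in ON DS 1, ON DS 3 and ON-OFF DS 7, and melanopsin-cell genes reach 8 in ON DS 1.

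The label of ON DS 1 stood beside an expression pattern that the other 3 ON DS cells did not share. Intrinsically photosensitive RGCs are defined by melanopsin, the photopigment encoded by *Opn4*, and by the T-box transcription factor encoded by *Eomes*. *Opn4* had a signal of 34985 in ON DS 1, with 11449 at its other probe set, and of 189, 3 and 105 in ON DS 2, 3 and 4. *Eomes* was at 28569 in ON DS 1 and at most 164 in the other 3 ON DS cells. Neither gene was detected in an ON-OFF DS cell. Outside the DS cells *Opn4* was detected in an orientation-selective cell (ON hOS 10) and in 2 ON alpha cells (ON alpha 12 and 13). *Eomes* was detected in ON hOS 10 and ON alpha 12. The study proposes that ON DS cells may be among the intrinsically photosensitive subtypes not yet identified, which was not tested here.

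ON DS 1 also held *Prkcq* (protein kinase C theta) at 79690, *Prph* (peripherin, an intermediate filament protein) at 106279, *Ctxn3* at 84804 and the homeobox gene *Irx6* at 101648. Of these 4 genes only *Irx6* was detected in another of the 8 cells, at 63103 in ON-OFF DS 6. Among the other 21 cells *Irx6* and *Ctxn3* were each detected in 7, *Prph* in 5 and *Prkcq* in 2. *Adcyap1*, which encodes the peptide PACAP, was near the threshold at 3596 in ON DS 1 and was higher in ON-OFF DS 5 (24532) and ON-OFF DS 7 (18837). In all, 8 of 13 melanopsin-cell genes were detected in ON DS 1 and between 1 and 4 in each of the other 7 DS cells. The study had picked *Prkcq*, *Prph*, *Ctxn3* and *Irx6* by their correlation with *Opn4* across the cells of this series, ON DS 1 among them. Their signal in ON DS 1 was thus partly fixed by that choice and is not independent of *Opn4*. Because of this cell, the comparison is given with and without it.

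In the comparison of the sides, 7337 genes were detected in at least 1 of the 8 cells. Of these, 29 (0.395%) were detected in all ON-OFF DS cells and in no ON DS cell, and 5 (0.0681%) showed the reverse. When the same number of genes, the 1842 of highest signal, was counted as detected in every cell, the counts were 6 and 5, so the ON-OFF share of these genes went from 85.3% to 54.5%. After quantile normalization they were 15 and 8 (65.2%), and with the mean over a gene's probe sets 11 and 5 (68.8%). Without ON DS 2, the cell with the fewest detected genes, they were 35 and 25 (58.3%). Other settings raised the share, for example to 91.1% at a threshold of 1500, 90.5% at 6000 and 93% without ON-OFF DS 8. The cut for equal gene number was itself uneven, at a signal of 3013 in ON DS 2 and of 11957 to 14126 in the ON-OFF DS cells. The size of the excess on the ON-OFF side thus depended on how detection was set and on which cells were used.

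A second rule used signals in place of the threshold, and asked that all cells of a side lie above all cells of the other with medians at least 4-fold apart. By it 89 genes (1.21%) were higher in the ON-OFF DS cells and 20 (0.273%) in the ON DS cells, an ON-OFF share of 81.7%. That share was 79.2% over the genes detected at equal gene number, 70.6% after quantile normalization (77 and 32 genes) and 65.5% without a floor (127 and 67 genes).

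Without ON DS 1, 7039 genes remained for the comparison. Detection in all ON-OFF DS cells and in none of the other 3 ON DS cells was found for 63 genes (0.895%), and the reverse for 9 (0.128%). The 29 and the 5 genes stayed among them, as leaving out a cell cannot remove a gene from these counts. The 34 genes added on the ON-OFF side were by construction those detected in ON DS 1 but in no other ON DS cell, and they included *Kcna6*, *Resp18*, *Bnip3*, *Shfl* and *Hapln4*. *Resp18*, a gene of neuroendocrine secretory cells, was at 156277 in ON DS 1, at 19, 273 and 72 in ON DS 2 to 4, and between 21756 and 107796 in the ON-OFF DS cells. The 4 genes added on the ON side were *Spg7*, *Clk4*, *Gyg* and *Npc1*. The counts of genes separated by 4-fold became 169 (2.4%) and 39 (0.554%). A smaller side passes these rules more easily, and leaving out any other cell also raised every one of the 4 counts.

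**Figure D2:**
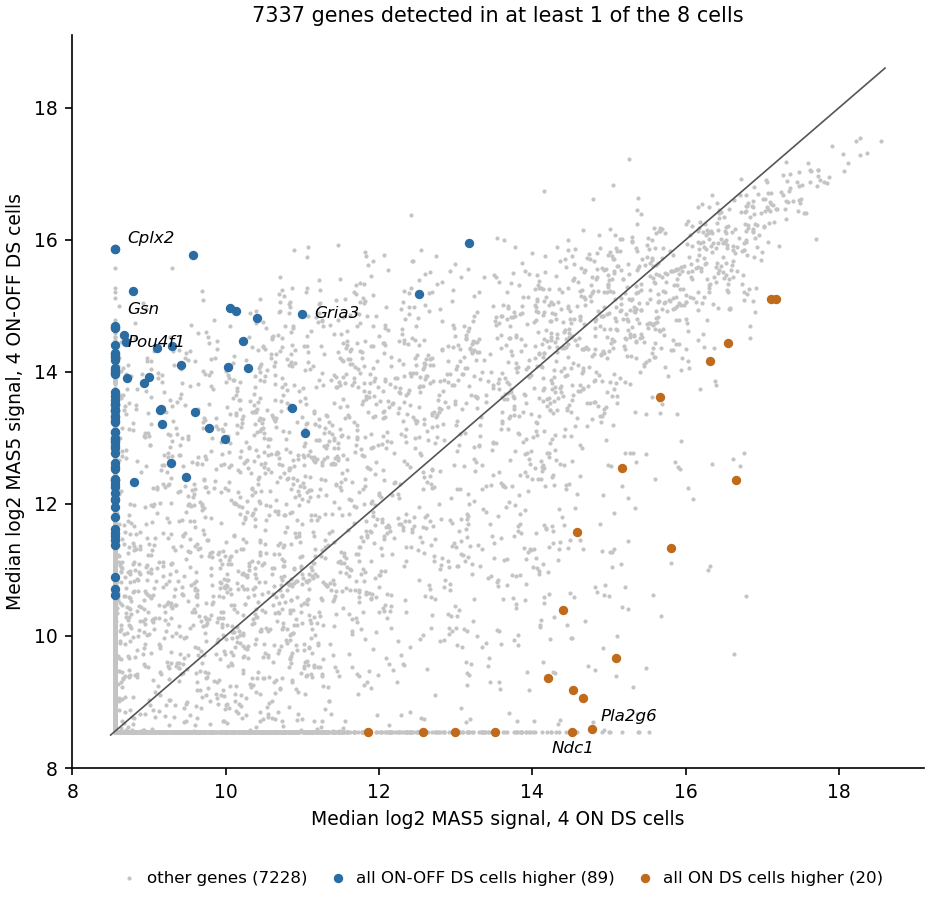
Each point is 1 of the 7337 genes, at its median log2 MAS5 signal in the 4 ON DS cells (x axis) and in the 4 ON-OFF DS cells (y axis), with the line of equal medians. The 89 blue genes and the 20 orange genes are those with no overlap of the sides and medians at least 4-fold apart; points along the lower and left edges lie at the floor of 8.55.

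Among the genes of the ON-OFF DS cells, *Gsn* and *Pou4f1* were both detected in 4 of 4 cells and in no ON DS cell. *Gsn* encodes gelsolin, which severs and caps actin filaments. Its signals were 5, 38, 122 and 89 in ON DS 1 to 4 and 51346, 30040, 12785 and 22969 in ON-OFF DS 5 to 8. The lowest ON-OFF DS value was thus over 4 times the detection threshold, and no ON DS cell came near it. The median log2 difference was 6.13 against the floor, with an SD within the ON-OFF side of 0.83. At 3 further probe sets of *Gsn* the sides separated in the same way, for example at 47949, 15843, 9346 and 18977 against at most 120, and at the remaining 2 all 8 cells were below the threshold. Outside the DS cells *Gsn* was detected in 1 of 21 cells, SbC 25, at 71347.

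*Pou4f1* encodes BRN3A, a POU-domain transcription factor of many RGCs. Its signals lay between 114 and 154 in the ON DS cells and were 14676, 45608, 11373 and 49370 in ON-OFF DS 5 to 8, a difference of 6.11 (SD within the ON-OFF side 1.10). The sides did not overlap at this probe set. At the other probe set of *Pou4f1* only ON-OFF DS 7 was detected, at 4229, and with the mean of both probe sets or with equal gene number the gene no longer met the detection rule. It was detected in 7 of the 21 cells outside the DS classes.

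*Cplx2*, which encodes complexin 2, a regulator of synaptic vesicle fusion, had the largest difference of medians among the 29 genes, 7.31. Its signals were 91161, 59112, 59883 and 52297 in ON-OFF DS 5 to 8 and 109, 215, 19 and 1852 in ON DS 1 to 4. A second probe set separated the sides as well, at 13783 or more against 477 or less. *Trim11*, which encodes a ubiquitin ligase, was between 15118 and 26489 in the ON-OFF DS cells and at most 205 in the ON DS cells (difference 5.86). Of the 29 genes, *Gsn* and *Trim11* alone passed under every setting of threshold, equal gene number, normalization and probe set that was run. The settings of floor and of cells left out cannot remove a gene from this count, so passing them tells nothing. *Cplx2* passed at equal gene number too, but not at a threshold of 1500, where ON DS 4 counted as detected, nor after quantile normalization.

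The other named genes of this group covered several cell functions. *Arf2*, a GTPase of vesicle traffic, was between 10926 and 33590 in the ON-OFF DS cells and at most 9 in the ON DS cells, but its 3 other probe sets were below the threshold in all 8 cells. *Ranbp3* (a cofactor of nuclear export), *Zfp142* (a zinc finger protein) and *Upf2* (a factor of nonsense-mediated mRNA decay) differed by 5.51, 5.48 and 5.41. Another probe set of *Zfp142* was at 13636 in ON DS 3, and with any probe set the gene no longer met the detection rule. *Upf2* was close to the threshold on both sides, at 2147 in ON DS 1 and 3166 in ON-OFF DS 6.

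*Rgmb*, a co-receptor for bone morphogenetic proteins that also binds neogenin, was at 17504, 50036, 8746 and 25035 in ON-OFF DS 5 to 8 and between 18 and 919 in the ON DS cells (difference 5.25). *Fry*, *Gpatch8* and *Capza1* followed at 5.02, 4.97 and 4.96. For *Gpatch8* another probe set gave 20540 in ON DS 2, and with any probe set the gene did not meet the detection rule. *Capza1* encodes a subunit of the protein that caps the barbed ends of actin filaments, and its second probe set gave detection in 3 cells of the ON-OFF side and none of the ON side. The remaining 17 of the 29 genes had differences from 3.41 (*Armc10*) to 4.94 (*Abat*, which encodes the enzyme that breaks down GABA). Most of the named genes were not limited to DS cells in this series. *Cplx2* was detected in 12, *Capza1* in 11 and *Arf2*, *Rgmb* and *Fry* each in 8 of the other 21 cells.

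**Figure D3:**
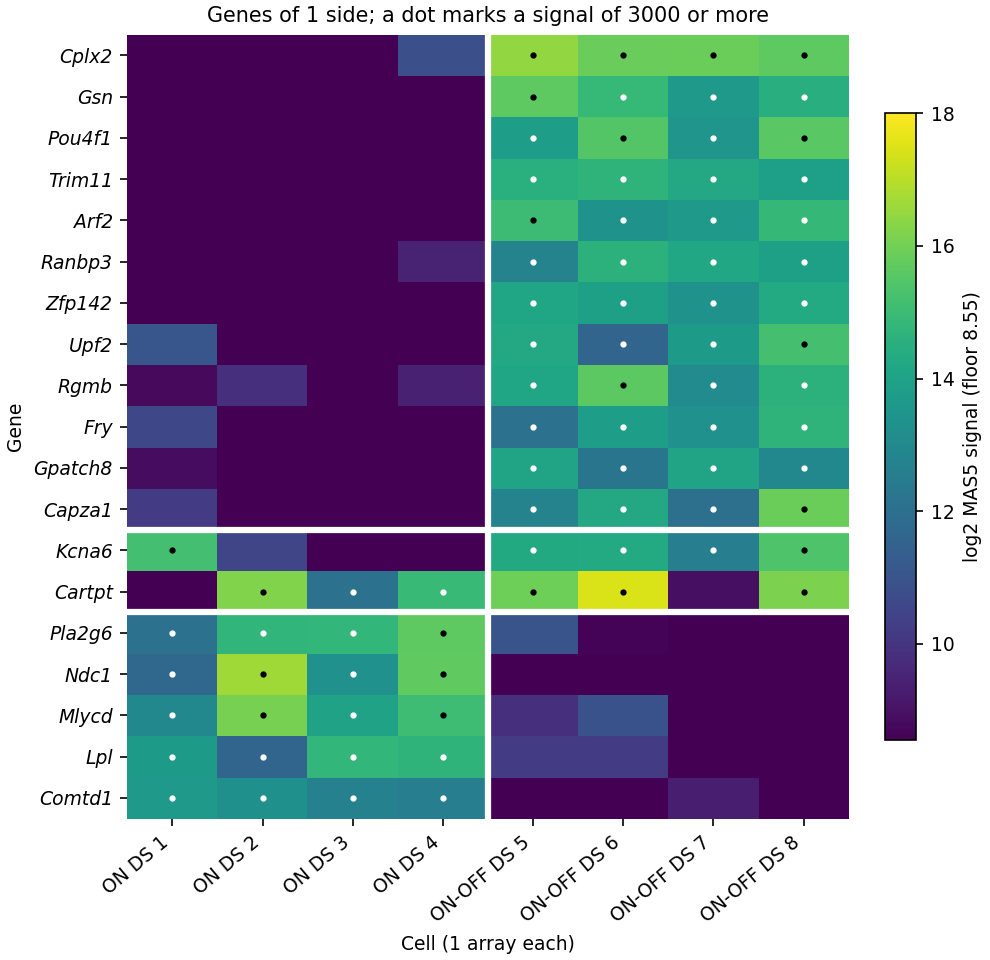
Colour gives the log2 MAS5 signal of each gene (rows) in each cell (columns), from the floor of 8.55 to 18, and a dot marks detection. The upper block holds the 12 genes with the largest differences among the 29 genes of the ON-OFF DS cells, the middle block *Kcna6* and *Cartpt*, and the lower block the 5 genes of the ON DS cells.

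The 5 genes detected in all ON DS cells and no ON-OFF DS cell were *Pla2g6*, *Ndc1*, *Mlycd*, *Lpl* and *Comtd1*. *Pla2g6* encodes a calcium-independent phospholipase A2. It was at 4295, 27621, 28828 and 51108 in ON DS 1 to 4 and at 2061, 395, 8 and 80 in ON-OFF DS 5 to 8, a difference of -6.20. The sides came closest in ON DS 1 and ON-OFF DS 5, which lay on either side of the threshold.

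*Ndc1*, a membrane protein of the nuclear pore, was at 3462, 104123, 10286 and 53505 in the ON DS cells and at most 45 in the ON-OFF DS cells (difference -5.97). *Mlycd*, which encodes malonyl-CoA decarboxylase of fatty acid metabolism, was between 7972 and 68525 against at most 1968 (difference -5.35). *Lpl*, which encodes lipoprotein lipase, was at 13303, 3136, 28896 and 26861 against at most 1178 (difference -4.84). *Comtd1*, a methyltransferase-domain gene, was between 6129 and 12746 against at most 658 (difference -4.44). ON DS 1 had the lowest value on its side for *Pla2g6*, *Ndc1* and *Mlycd*, and without it the differences were -6.23, -7.16 and -5.88.

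At the other probe sets of *Pla2g6* only ON DS 4 was detected, at 24013 and 16705. The other probe sets of *Ndc1* and *Lpl* were below the threshold in all 8 cells. With the mean of probe sets *Pla2g6*, *Ndc1* and *Lpl* no longer met the detection rule. None of the 5 genes passed under every setting, and *Lpl* was the only one that passed at equal gene number. The other 4 genes found on the ON side by that rule were *Chn1*, *Grsf1*, *Cops8* and *Serf2*, all with some detection in the ON-OFF DS cells at the fixed threshold. *Chn1*, which encodes the Rac-regulating protein chimaerin 1, was between 18240 and 129246 in the ON DS cells and between 746 and 9419 in the ON-OFF DS cells.

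*Kcna6* and *Cartpt* did not separate the sides when all 8 cells were used. *Kcna6* encodes a voltage-gated potassium channel subunit of the Kv1 family. Its signals were 20225, 20697, 6228 and 42682 in ON-OFF DS 5 to 8 and 37342, 1465, 13 and 241 in ON DS 1 to 4. ON DS 1 thus lay within the range of the ON-OFF DS cells, and the difference was 4.79 with it and 5.77 without it. The 2 further probe sets of *Kcna6* were below the threshold in all 8 cells.

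*Cartpt* encodes the CART peptide, which is widely used as a marker of ON-OFF DS cells. It was at 61800, 181066, 489 and 72892 in ON-OFF DS 5 to 8 and at 129, 75979, 4454 and 32046 in ON DS 1 to 4. It was thus detected in 3 of 4 cells on both sides and lacking in ON-OFF DS 7, and the sides overlapped over most of their range. The difference of medians was 2.49 with ON DS 1 and 1.07 without it, less than the SD within either side (3.40 and 3.85). *Cartpt* therefore did not tell the labels apart in these 8 cells. Of the other 21 cells, 4 had *Cartpt*.

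The proximal promoter of *Cartpt* is shown because the gene was high on both sides, next to that of *Ube2h*, a ubiquitin-conjugating enzyme gene. Of the 29 ON-OFF genes 22 had a promoter window, and among these only *Ube2h* shared the cAMP response element of *Cartpt*. *Ube2h* was chosen after its values were seen. Its signals were 4578 to 38260 in the ON-OFF DS cells and at most 520 in the ON DS cells. It failed the detection rule at a threshold of 6000, at equal gene number, after quantile normalization, and with any or the mean of probe sets. The window of another start site of *Ube2h* lacked the element. Both windows shown are the 250 bases before a RefSeq start site on the minus strand of GRCm38.p6, at chr13:99900684-99900933 for *Cartpt* and chr6:30304540-30304789 for *Ube2h*, with the element TGACGTCA in capitals.
Cartpt: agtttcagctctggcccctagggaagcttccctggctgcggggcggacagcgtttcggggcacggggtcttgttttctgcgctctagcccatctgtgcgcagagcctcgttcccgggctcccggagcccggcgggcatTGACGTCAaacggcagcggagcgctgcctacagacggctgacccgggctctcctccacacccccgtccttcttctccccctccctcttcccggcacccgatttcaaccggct
Ube2h: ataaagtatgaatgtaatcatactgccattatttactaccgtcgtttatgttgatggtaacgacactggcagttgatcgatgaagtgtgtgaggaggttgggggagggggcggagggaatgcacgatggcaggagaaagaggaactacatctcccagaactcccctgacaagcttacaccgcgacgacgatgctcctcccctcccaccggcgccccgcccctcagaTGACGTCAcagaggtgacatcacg
The element, which reads the same on both strands, ended 104 bases before the start site of *Cartpt* and 16 bases before that of *Ube2h*. Of the 29 genes, 22 had 28 such windows, and 1 window (3.57%) held the element, against 1.55% of all 32851 windows. The motif ATTAAT, searched on both strands, was in 1 of the 28 windows (*Tmem14c*) against 4.39% of all, and TATAAA in 3 (10.71%) against 12.37%. A match describes the letters only and shows no binding.

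Other genes known from ON-OFF DS cells were found in some cells of that side rather than in all. Of 12 such genes with a value, 4 or 5 were detected in each ON-OFF DS cell and 2 to 4 in each ON DS cell. *Gpr101*, an orphan G-protein-coupled receptor, was at 8988, 3, 6402 and 5466 in ON-OFF DS 5 to 8 and at most 22 in the ON DS cells. It was detected in none of the other 21 cells. *Tafa4*, a secreted chemokine-like protein, was at 2521, 4, 7201 and 47954 in ON-OFF DS 5 to 8, at most 165 in the ON DS cells and in none of the other 21.

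ON-OFF DS 6, which lacked *Gpr101* and *Tafa4*, was the only one of the 8 cells with *Trhr*, the receptor for thyrotropin-releasing hormone, over the threshold (20354), although ON-OFF DS 5 was just under it at 2980 and the ON DS cells were at most at 157. It was also alone with *Satb1*, a chromatin organiser (15353). *Mmp17*, a membrane-bound metalloprotease, was at 24866 in ON-OFF DS 5 and 36478 in ON-OFF DS 6, but also at 25977 in ON DS 3, and its difference of 2.70 turned to -0.33 without either of these ON-OFF DS cells. *Cdh6*, an adhesion molecule, was detected in ON-OFF DS 7 alone, at 3233, near the threshold. *Drd4*, a dopamine receptor, was found on the ON side only, at 3726 in ON DS 1 and 5436 in ON DS 3. The latter are the cells with the most rod genes among the ON DS cells, and *Drd4* was detected in 12 of the other 21 cells, but a link between them was not tested.

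The calcium-binding proteins gave another uneven pattern. *Calb2* (calretinin) was at 87132, 120007, 639 and 27225 in ON-OFF DS 5 to 8 and at 11810, 34, 23 and 11 in ON DS 1 to 4. Only ON DS 1 was detected on the ON side and only ON-OFF DS 7 was missing on the other, which gave a difference of 7.02, and 20 of the other 21 cells also held the gene. *Calb1* (calbindin) was detected in all 4 ON DS cells and in 3 of 4 ON-OFF DS cells, with 60 in ON-OFF DS 6.

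Of 11 genes known from ON DS cells, 7 were detected in none of the 8 cells, among them *Hoxd10*, *Fstl4* and *Tbx5*. At the probe sets used, the medians of the other 4 were not higher on the ON side. *Sema6a*, a transmembrane semaphorin that ON DS axons need to innervate the accessory optic system, was at 8566, 15850, 9390 and 2 in ON-OFF DS 5 to 8. In the ON DS cells it reached 2442 in ON DS 3 and 2761 in ON DS 4, just under the threshold, so that detection in 0 against 3 cells overstated the gap. Its binding partner *Plxna2* was detected in ON DS 3 and in ON-OFF DS 6 and 8, *Cntn4* in ON DS 3 and ON-OFF DS 6, and *App*, a partner of *Cntn4*, in 3 and 4 cells. Other probe sets of *Cntn4* (12789) and *Sema6a* (3098) were detected in ON DS 4 alone of the 8 cells. With any probe set the difference of *Cntn4* was -1.37. Other probe sets gave detection of *Plxna2* in 1 cell of each side and of *App* in 1 ON DS and 2 ON-OFF DS cells.

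**Figure D4:**
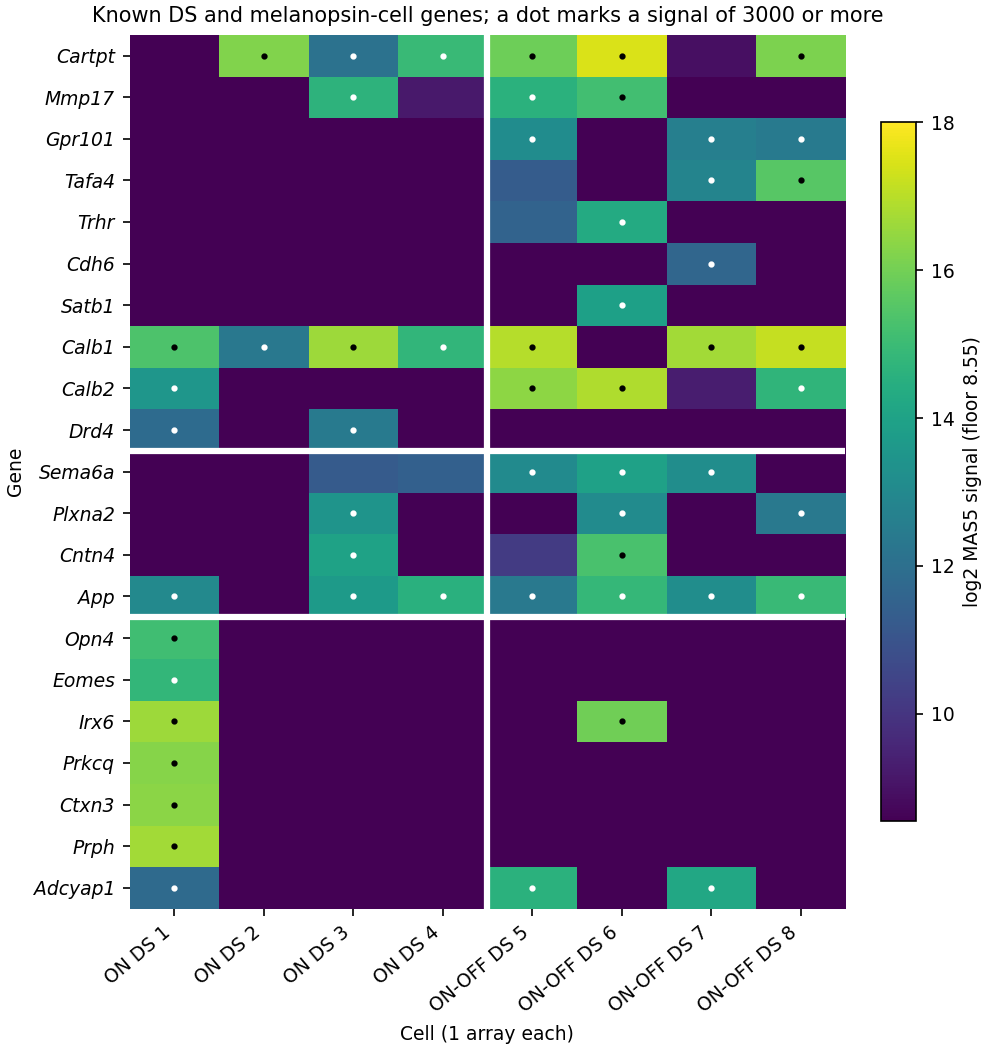
Colour gives the log2 MAS5 signal of each gene (rows) in each of the 8 cells (columns), and a dot marks detection. The upper block holds genes known from ON-OFF DS cells, the middle block genes known from ON DS cells, and the lower block genes of melanopsin cells, of which *Opn4*, *Eomes*, *Prkcq*, *Ctxn3* and *Prph* were detected in ON DS 1 alone.

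Functional groups were then read with a looser rule, detection in at least 3 of 4 cells of a side and at most 1 of the other, which 507 of all 7337 genes (6.91%) met for the ON-OFF side and 145 (1.98%) for the ON side. Among the transcription factors of RGCs, 16 of 42 genes were detected in any of the 8 cells, and *Ebf3* and *Pou4f1* met the rule on the ON-OFF side. *Ebf3* was at 24853, 485, 30214 and 67762 in ON-OFF DS 5 to 8 and at 263, 87, 9232 and 319 in ON DS 1 to 4, so the sides overlapped through ON-OFF DS 6 and ON DS 3. *Nrn1*, which encodes the neurite-promoting protein neuritin, was detected in all ON-OFF DS cells and in ON DS 3 (difference 4.95).

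The potassium and HCN channel list had 34 detected genes of 86. On the ON-OFF side 6 met the rule, *Kcnip4*, *Kcnd3*, *Kcnt1*, *Kcna1*, *Kcna6* and *Kcnj11*, and on the ON side *Kcnj3*, a subunit of G-protein-gated inward rectifiers. *Kcnd3* encodes the A-type channel Kv4.3, and *Kcnip4* encodes a protein that binds Kv4 channels. *Kcnd3* was at 119658, 41344, 2891 and 8722 in ON-OFF DS 5 to 8 and at 55908 in ON DS 3, with at most 678 in the other ON DS cells. *Kcnip4* was at 10790, 50, 25658 and 33946 against 5557 in ON DS 1 and at most 334 in the others. Both genes were present together in ON-OFF DS 5 and 8 only.

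The number of potassium channel genes per cell was 20, 4, 15 and 7 in ON DS 1 to 4 and 15, 18, 19 and 15 in ON-OFF DS 5 to 8. The low counts were those of ON DS 2 and 4, the cells with the fewest detected genes. *Kcnj3* was at 12601, 7043 and 71281 in ON DS 1, 3 and 4, but also at 12150 in ON-OFF DS 6.

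The sodium channel list had 10 of 16 genes detected, and 2 met the rule. It also held *Ank3*, *Fgf12* and *Fgf13*, which are not channel genes themselves. *Scn2a*, which encodes the channel Nav1.2, was at 9137, 71823, 20609 and 36074 in ON-OFF DS 5 to 8 and at 543, 4, 7 and 14067 in ON DS 1 to 4. ON DS 4 lay above ON-OFF DS 5, so the sides overlapped. *Scn8a*, which encodes Nav1.6, was detected in all ON-OFF DS cells and in ON DS 1 and 4. *Nalcn*, the sodium leak channel, was detected in 3 ON-OFF DS cells, ON DS 3 and 1 of the other 21 cells. At its other probe set it was detected in 2 cells of each side and did not meet the rule. Its signals there were 10781 and 4048 in ON DS 3 and 4 and 7357 and 17368 in ON-OFF DS 6 and 8. The 4 ON-OFF DS cells held 6 to 8 genes of this list and the 4 ON DS cells 3 to 5, with *Fgf12* in every cell. At equal gene number these were 3 to 6 and 2 to 5, and the sides overlapped.

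Calcium channel genes did not run one way, with *Cacnb1* meeting the rule on the ON-OFF side and *Cacng3* on the ON side. *Cacnb1*, a beta subunit, was at 40594, 16937, 15 and 4133 in ON-OFF DS 5 to 8, but its highest signal of the 8 cells was 273050 in ON DS 4, and its 3 other probe sets were below the threshold in all 8. *Cacng3*, whose product assists AMPA receptor traffic, was at 3432, 212, 5877 and 65493 in ON DS 1 to 4 and at most 17 in the ON-OFF DS cells. The AMPA receptor gene *Gria3* was detected in all ON-OFF DS cells, at 15845, 11340, 57113 and 85093, and in ON DS 1 and 3 at 5792 and 10019. Its sides did not overlap, and the difference was 3.88.

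Among genes tied to the transmitters of starburst amacrine cells, none met the looser rule. Of all genes 6.91% met it for the ON-OFF side and 1.98% for the ON side. In lists this short, a count of none is near those shares and does not show that the sides are alike. Of 22 acetylcholine genes 9 were detected, and none met the rule. *Chrnb2*, the beta 2 subunit of nicotinic receptors, was detected in all 8 cells, from 15348 to 82658 in the ON DS cells and from 16236 to 104085 in the ON-OFF DS cells. *Chrna6* was detected in 7 of 8, all but ON DS 2. *Ache*, *Lynx1* and *Lypd6*, which break down acetylcholine or modulate its receptors, were detected in all 8. Of 23 genes in the GABA and glycine list, which held *Gphn*, *Nlgn2* and *Slc12a5* beside receptor genes, 11 were detected and none met the rule. Medians in that list were higher on the ON-OFF side for 6 genes and on the ON side for 2. *Glrb* was detected in 4 ON-OFF DS and 2 ON DS cells, with a difference of 3.8. The chloride transporter gene *Slc12a5* was present in all 8 cells. The neuropeptide list, with 12 of 26 genes detected, also had none.

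Axon guidance genes were detected more often on the ON-OFF side. Of 68 genes 30 were detected, and 9, 15, 13 and 13 were found in ON-OFF DS 5 to 8 against 7, 5, 5 and 6 in ON DS 1 to 4. *Rgmb*, *Slit2* and *Sema6a* met the rule on the ON-OFF side and no guidance gene on the other. *Slit2*, a repulsive ligand of Robo receptors, was at 120, 4731, 7611 and 5545 in ON-OFF DS 5 to 8 and at most 413 in the ON DS cells, and was detected in 1 of the other 21 cells. *Neo1*, the neogenin receptor of *Rgmb*, was detected in ON-OFF DS 6 and 7 only. At equal gene number the guidance counts were 3, 10, 1 and 5 against 3, 5, 2 and 5, and the gap between the sides was not there.

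Genes of the extracellular matrix gave a similar count, 12, 12, 12 and 10 of 90 genes in ON-OFF DS 5 to 8 and 8, 5, 9 and 7 in ON DS 1 to 4. *Lamb1* (laminin beta 1), *Lgals3* (galectin 3), *Reln* (reelin) and *Hapln4* (a link protein of perineuronal nets) met the rule on the ON-OFF side. *Lgals3* was at 18491, 11985, 28508 and 46 in ON-OFF DS 5 to 8 and at most 96 in the ON DS cells. At equal gene number the counts were 6 to 11 and 5 to 7, which overlapped.

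Among regulators of actin, 33 of 45 genes were detected, 8 met the rule on the ON-OFF side and 2 on the ON side. The 8 were *Gsn*, *Enah*, *Capza1*, *Cttn*, *Arpc2*, *Arpc4*, *Actr3* and *Cap2*. *Arpc2*, *Arpc4* and *Actr3* encode subunits of the Arp2/3 complex, which nucleates branched actin filaments. Each of these 3 genes was detected in 3 ON-OFF DS cells and in ON DS 1. For *Enah*, a filament elongation factor, and *Cttn* (cortactin) the ON DS cell detected at the probe set used was again ON DS 1, at 10096 and 3709. Other probe sets of *Enah* gave 94781 and 3873 in ON DS 2, so its pattern did not hold across probe sets. At the probe sets used, *Gsn* and *Capza1* were the only actin genes of the 8 that were missing in ON DS 1 and detected in all ON-OFF DS cells. On the ON side stood *Limk1*, which encodes a kinase that inactivates cofilin (difference -3.81), and *Actb*, which encodes beta actin (difference -2.56). The counts per cell were 20, 10, 15 and 16 and 25, 22, 23 and 19, which overlapped.

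**Figure D5:**
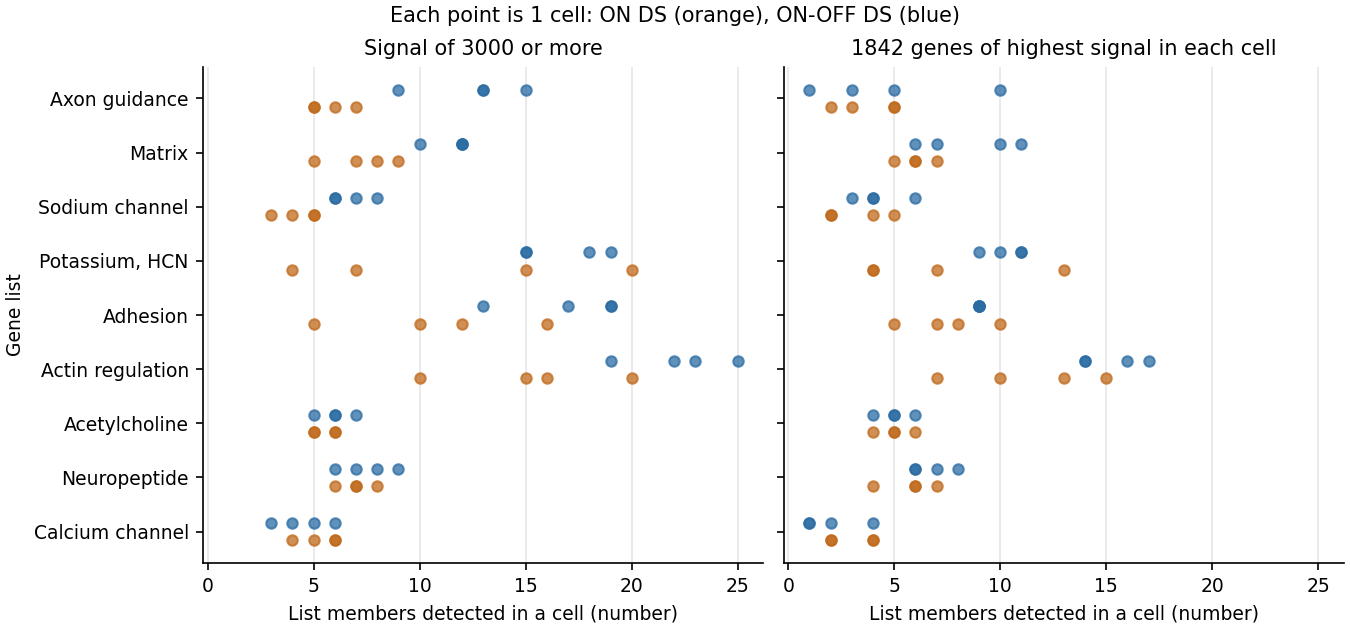
Each point is the number of list members detected in 1 cell, for 9 gene lists, with detection at a signal of 3000 (left) or among the 1842 genes of highest signal in each cell (right); darker points are cells of equal count. At the fixed threshold the sides do not overlap for the axon guidance, matrix and sodium channel lists, and with equal gene number they overlap for all 9 lists.

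The remaining lists added few genes. In the adhesion list, with 38 of 90 genes detected, *Cntn6* and *Nrxn2* met the rule on the ON-OFF side, and *Pcdh7*, a protocadherin, was above all ON DS cells but over the threshold only in ON-OFF DS 7 and 8. Among 19 genes of calmodulin kinase signalling, *Atf2* and *Camk4* met it. *Camk4* was at 4985, 23357 and 57191 in ON-OFF DS 5, 6 and 8 and at 50799 in ON DS 3, and in none of the other 21 cells. In the Müller glia list *Dkk3*, a secreted member of the Dickkopf family, was at 47912, 32189 and 26087 in ON DS 1, 3 and 4 and at 49238 in ON-OFF DS 6, with at most 924 in the other 4 cells. Without the 4 cells with 5 or more rod genes, the difference of *Dkk3* turned from -5.33 to 0.75 and that of *Cntn6* from 4.29 to -0.47.

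The overlap of the sides was then described. Of the genes detected in at least 3 of 4 cells, the ON side had 1353 and the ON-OFF side 2021, and 1011 were on both lists, which is 74.7% of the first and 50.02% of the second. Without ON DS 1 the shared genes were 530, but the rule then asked for detection in all 3 remaining ON DS cells. This stricter rule and the loss of the cell cannot be told apart in that count. Conversely, 2321 of the 7337 genes (31.6%) were detected in 1 of the 8 cells only. Across genes, Pearson r of log2 signals was 0.27 to 0.43 for the 6 pairs of ON DS cells (median 0.315), 0.32 to 0.41 for the 6 pairs of ON-OFF DS cells (median 0.345) and 0.26 to 0.45 for the 16 pairs of mixed sides (median 0.335). Genes are not independent replicates, so these values are descriptions. The cell most like each DS cell among the other 28 was never of its own side. The nearest cells were alpha RGCs, and the best rank of a cell of the same side was 5 for ON DS 4 and between 9 and 14 for the other 7.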

How the data were processed

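The deposited values are MAS5 signals, linear intensity values that the authors computed for 45101 probe sets, with 1 array of an Affymetrix mouse genome type per cell. No version of MAS5 is given in the sources used here. Every array had a 2% trimmed mean of 1500, and no detection calls were used.

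Probe sets were named from the platform annotation: 34958 belonged to 1 gene (18194 genes), 932 to several and 9211 to none, and gene IDs of 34754 matched a current gene table without changing a symbol. Where a gene had several probe sets, the one whose log2 signal averaged highest across all 29 cells stood for it. Detection was a signal of 3000 and the floor 375. Since no source names the animals, no test, p-value or standard error was computed between the sides, and precision is limited by the number of arrays. Promoter windows came from RefSeq (GRCm38.p6).

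The members and lists were chosen with earlier results of these data known. Named genes were *Gsn*, *Pou4f1*, *Kcna6* and *Cartpt*, for each side the 12 genes of largest difference among those detected in all its cells and none of the other side, up to 6 members of each list that met the looser rule or the 4-fold rule, and known ON DS and ON-OFF DS genes with a value. Any other gene was picked after seeing its values. Alternatives were thresholds of 1500 and 6000, the same number of top genes per cell, quantile normalization, no floor (lowest value 1) or a floor of 1500, any or all probe sets, leaving out each cell, and leaving out cells with 5 or more rod genes. The counting was tested on simulated data. The software was pandas 2.3.3, scipy 1.17.1 and numpy 2.4.6 under Python 3.11.15, with matplotlib 3.10.9 for the figures.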

Additional observations from a re-analysis of the deposited data

Results flagged for a closer look

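In 49 of 150 groups of 4 values, 1 DS cell was flagged as apart from the other 3 of its side. The flag was a gap to the nearest cell, divided by the range, above Dixon's 95% critical value for 4 samples. Chance flags about 1 in 20 groups, but in 34 of the 49 the ratio was 1 because the other 3 cells lay at the floor, where the test has no spread to measure. For ON DS 1 this held for *Opn4*, *Eomes*, *Prkcq*, *Prph*, *Ctxn3*, *Irx6*, *Adcyap1*, *Calb2*, *Arpc4*, *Capza1*, *Cttn*, *Enah*, *Fry*, *Gpatch8*, *Kcnip4* and *Upf2*. For ON DS 3 it held for *Atf2*, *Camk4*, *Cntn4*, *Ebf3*, *Kcnt1* and *Plxna2*, and for ON DS 4 for *Cacnb1*, *Cntn6*, *Cplx2*, *Gnaq*, *Ranbp3*, *Reln* and *Slit2*. On the ON-OFF side it held for *Gna11*, *Irx6* and *Satb1* in ON-OFF DS 6 and for *Cdh6* and *Comtd1* in ON-OFF DS 7. A ratio of 1 does not measure distance. *Gpatch8* at 465 in ON DS 1 and *Slit2* at 413 in ON DS 4 lay just above the floor of 375.

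The other 15 ratios were below 1. In the ON DS cells they were 0.935 for *Arpc2* and 0.846 for *Kcna1* (ON DS 1 high), 0.882 for *Kcnd3* and 0.892 for *Mmp17* (ON DS 3 high), 0.898 for *Scn2a* (ON DS 4 high) and 0.875 for *Dkk3* (ON DS 2 low). In the ON-OFF DS cells 3 ratios came from ON-OFF DS 6, which was low at 0.943 for *Calb1* and 0.843 for *Gpr101* and high at 0.847 for *Dkk3*. ON-OFF DS 5 was low at 0.908 for *Atf2* and 0.842 for *Slit2* and high at 0.969 for *Pla2g6*. ON-OFF DS 8 was low at 0.869 for *Cttn*, 0.891 for *Kcnt1* and 0.836 for *Sema6a*.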

How the results depend on the processing

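The counts of separated genes depended on the settings. Genes detected in all ON-OFF DS cells and no ON DS cell, 29 as reported, were 19 at a threshold of 6000, 6 with the same number of top genes in every cell (3 of the 29 among them), 15 after quantile normalization, 11 with the mean of probe sets and 569 without the 4 cells with 5 or more rod genes, which leaves 2 cells a side. The reverse count, 5 as reported, was 2 at 6000, 8 after quantile normalization and 74 without the rod-rich cells. Genes higher in all ON-OFF DS cells by 4-fold, 89 as reported, were 49 with the mean of probe sets and 1085 without the rod-rich cells. Those higher in all ON DS cells, 20 as reported, were 32 after quantile normalization, 67 without a floor and 230 without the rod-rich cells. The 1011 genes shared by the sides were 623 with equal gene number, 602 with the mean of probe sets and 574 without the rod-rich cells. In the last of these the rule asked for detection in every remaining cell, which is stricter than 3 of 4.

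Leaving out 1 cell at a time gave 35 (without ON DS 2) to 80 (without ON-OFF DS 8) and 6 to 25 genes by detection, 122 to 227 and 23 to 75 by 4-fold, and 530 to 805 shared genes. Without ON DS 2, the cell with the fewest genes, the counts by detection were 35 and 25 and those by 4-fold 122 and 75. Fewer cells make the detection and 4-fold rules easier to meet, while the rule for shared genes then asked for every cell of the shortened side. Of 1173 values of the 69 named genes under alternatives, 1054 moved by less than 1 SD within the sides. These include the thresholds of 1500 and 6000 and equal gene number, which left all 69 values in place because differences of medians do not use detection. The sign changed in 9 values of 6 genes: *Dkk3* (-5.33 to 0.75), *Cntn6* (4.29 to -0.47) and *Calb1* (1.77 to -0.80) without the rod-rich cells, *App* (0.66 to -0.17) without ON-OFF DS 6 or 8, *Mmp17* (2.70 to -0.33) without ON-OFF DS 5 or 6, and *Cntn4* (0.82) with any probe set (-1.37) or their mean (-0.28). The cause was not tested. No paired analysis was possible because the numbers in the labels run from 1 to 8 and the sides share none.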
